A study of Homo sapiens with 15 samples.

Results

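The block examined here is a run of 32 neighbouring genes on the long arm of human chromosome 7, in band 7q22, from SLC12A9 to ORC5 in reference order. The genes were chosen by their low array values in the neuroblastoma line KELLY against the other lines, in an earlier reading of the same 15 arrays, so that difference is given below as a description with no test. All 32 had a probe set, out of 18244 genes on the array. Of these members, 31 were among the 12721 genes tested, and ACHE was below the filter on low values in all 5 lines. Total RNA of KELLY, SK-N-AS, SH-SY5Y, NGP and BE(2)-C was hybridised to 3 arrays per line. All are established neuroblastoma lines grown in the same medium with 10% serum and carry no treatment. From general knowledge, KELLY, NGP and BE(2)-C carry MYCN amplification, while SK-N-AS and SH-SY5Y do not, and SH-SY5Y and BE(2)-C are subclones of older lines. Each line stands for 1 tumour. Nothing in the labels says whether the numbered arrays of a line are separate cultures. The p-values therefore cover the spread between arrays only, and that spread may be technical.

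Genes that lie side by side in band 7q22 have little in common by function. The block holds subunits of housekeeping machines (the proteasome, RNA polymerase II, the origin recognition complex, the mitochondrial processing peptidase), membrane transporters and channels, the neuropeptide precursor VGF, and the homeodomain factor CUX1. Losses and rearrangements of 7q22 are best known from myeloid neoplasms, where CUX1 is a much studied gene of the band. The present data measure RNA only.

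Some members start so close to a neighbour that their promoters overlap, and such pairs were set beside the expression values. Promoter windows, from 250 bases before to 50 bases after the gene start, were found in RefSeq (GRCh38.p14) for 28 of the 32 members. LRWD1 (chr7:102464734-102465033, plus strand) runs away from ALKBH4 (chr7:102464814-102465113, minus strand), and their windows share 220 bases. ARMC10 (chr7:103074890-103075189, plus strand) runs away from FBXL13, and 157 bases are shared with 1 of the FBXL13 windows (chr7:103074747-103075046, minus strand). VGF (chr7:101165520-101165819, minus strand) and ORAI2 (chr7:102433325-102433624, plus strand) are shown because their windows hold CACGTG, the E-box letters that MYC-family factors are known to bind. The sequences are written 5′ to 3′ on the gene's strand. Capitals mark the bases shared with the neighbour's window in LRWD1 and ARMC10, and CACGTG in VGF and ORAI2.
LRWD1: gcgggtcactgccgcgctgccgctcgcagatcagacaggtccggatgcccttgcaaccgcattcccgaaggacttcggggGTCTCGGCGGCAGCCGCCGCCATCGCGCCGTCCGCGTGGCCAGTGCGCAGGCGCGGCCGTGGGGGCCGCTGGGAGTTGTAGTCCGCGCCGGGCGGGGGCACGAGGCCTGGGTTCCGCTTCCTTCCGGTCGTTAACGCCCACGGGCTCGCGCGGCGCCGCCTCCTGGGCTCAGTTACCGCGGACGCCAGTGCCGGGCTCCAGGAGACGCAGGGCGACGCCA
ARMC10: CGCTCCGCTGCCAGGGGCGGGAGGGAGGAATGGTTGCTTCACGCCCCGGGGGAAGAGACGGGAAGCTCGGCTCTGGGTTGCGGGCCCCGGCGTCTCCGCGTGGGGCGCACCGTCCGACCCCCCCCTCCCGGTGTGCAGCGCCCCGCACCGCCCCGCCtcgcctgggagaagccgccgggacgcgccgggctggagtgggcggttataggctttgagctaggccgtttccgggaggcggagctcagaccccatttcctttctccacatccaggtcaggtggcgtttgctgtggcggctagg
VGF: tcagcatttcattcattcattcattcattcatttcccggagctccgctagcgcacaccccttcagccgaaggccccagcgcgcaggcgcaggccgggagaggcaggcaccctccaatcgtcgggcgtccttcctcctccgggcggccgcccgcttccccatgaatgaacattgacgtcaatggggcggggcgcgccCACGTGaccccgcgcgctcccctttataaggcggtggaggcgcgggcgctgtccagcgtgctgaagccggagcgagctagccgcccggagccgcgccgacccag
ORAI2: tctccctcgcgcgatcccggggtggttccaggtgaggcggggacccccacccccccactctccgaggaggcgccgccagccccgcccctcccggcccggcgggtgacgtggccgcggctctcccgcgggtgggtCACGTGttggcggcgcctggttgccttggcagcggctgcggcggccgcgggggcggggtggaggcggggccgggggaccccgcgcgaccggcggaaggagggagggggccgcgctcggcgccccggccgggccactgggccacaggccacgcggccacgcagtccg
CACGTG, which reads the same on both strands, was found in the windows of 6 of the 28 members (21.4%: SLC12A9, TRIP6, ACHE, VGF, CUX1 and ORAI2), and in 8.77% of the 27305 genes in the table. CCAAT, searched with its complement ATTGG, was found in 11 of 28 members (39.3%), and in 39.7% of all genes. GGGCGG, searched with its complement CCGCCC, was found in 18 of 28 members (64.3%), and in 48.3% of all genes. These letters describe the windows and show no binding.

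The members were low in KELLY as a group. Levels are given throughout as log2(intensity + 1) minus the median of the tested genes on the same array, so that 0 is the array's median gene, and a difference is KELLY minus the average of the other 4. Its median over the 31 tested members stood at -1.15, a 2.22-fold lower value in KELLY, beside 0.07 over all tested genes. KELLY was the lower side in 28 members, as it was in 5669 of all 12721 tested genes, and 3 members had a difference above 0. In 19 members the difference was -1 or below, and 5.65% of all tested genes were that low. The 3 KELLY arrays all lay below the 12 other arrays in 24 members, as they did in 9.07% of all tested genes (1154 of 12721), and these shares are not independent of how the genes were chosen. The 24 include TRIP6, FAM185A, NAPEPLD and UFSP1, whose mean KELLY intensity was under the filter. The 19 include TRIP6, FAM185A, NAPEPLD and TRIM56, which was under it as well. In extracts of whole cultures, fewer cells of a type and less RNA per cell cannot be told apart.

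Set side by side, the 5 lines took different levels of the block, with KELLY lowest. The median over the tested members was -0.71 ± 0.02 in KELLY, 0.17 ± 0.08 in NGP, 0.61 ± 0.05 in SK-N-AS, 0.66 ± 0.11 in BE(2)-C and 1.33 ± 0.08 in SH-SY5Y (SD, n = 3 arrays each). The medians of SK-N-AS and BE(2)-C lay within their spread of each other. KELLY had the lowest line mean of the 5 in 25 members, as it had in 14.5% of all tested genes. In 14 of those 25 NGP came next. SH-SY5Y had the highest mean in 22 of the 31 members, SK-N-AS in 5, NGP in 2, BE(2)-C in 1 and KELLY in MOGAT3. The same counts over all tested genes were not made for the second lowest and the highest line. The median over the members of KELLY minus 1 other line was -1.41 against SH-SY5Y, -1.0 against BE(2)-C, -0.99 against SK-N-AS and -0.72 against NGP, while the same over all tested genes lay between 0.02 and 0.13.

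**Figure D1:**
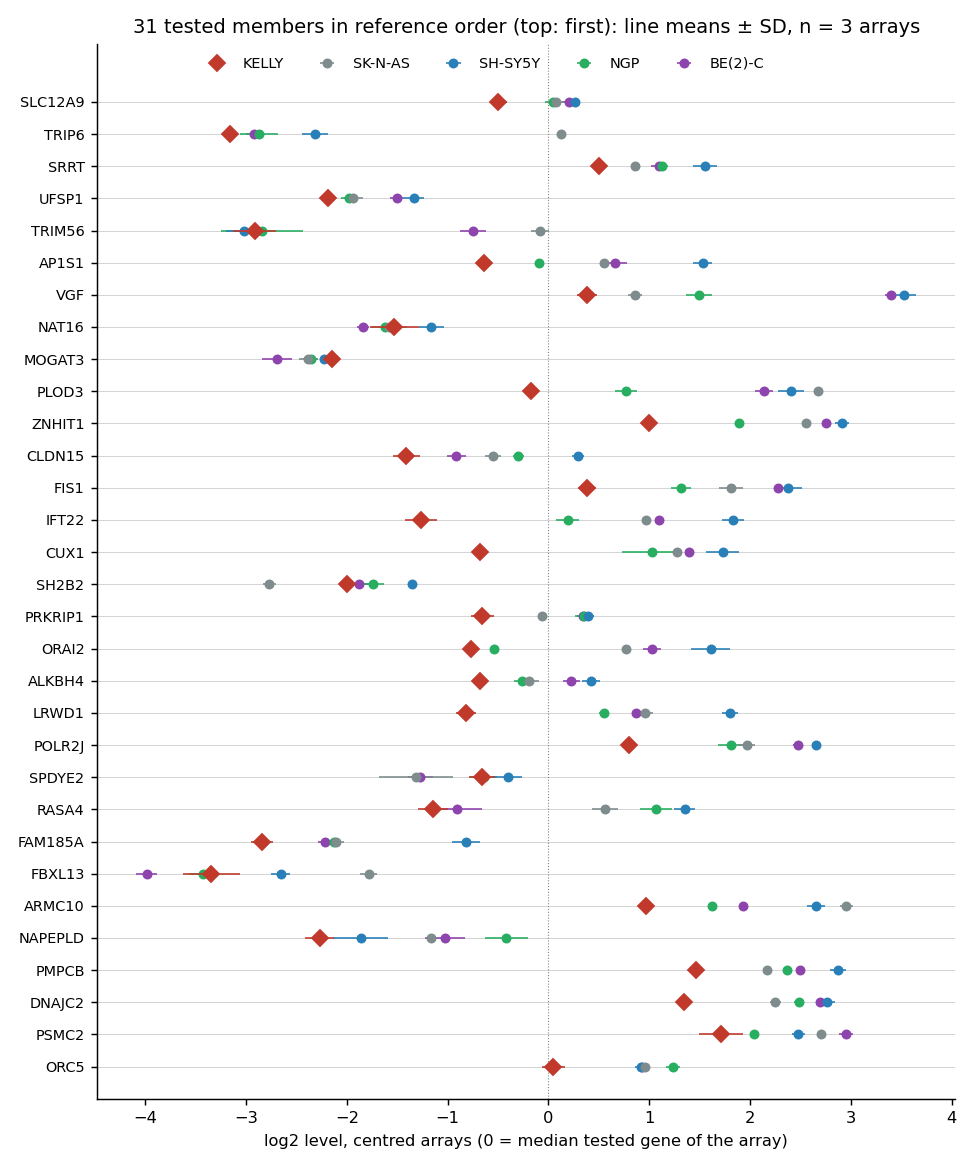
Mean log2 level of each of the 31 tested members in the 5 lines (diamonds KELLY, circles other lines), with bars of ± 1 SD over 3 arrays and 0 at the median tested gene of each array. The KELLY diamond is the leftmost symbol in 25 members, and the other 6 members all have mean levels below 0.

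The members were also split by their signal. Of the 19 members whose mean over all 15 arrays was at or above the array median, 18 had all KELLY arrays below the others, and the median difference of the 19 was -1.42. RASA4 was the exception. All KELLY arrays were below the others in 864 of the 6204 tested genes that bright, and in 1154 of the 12721 of any level. Of the 12 members with a lower mean, 6 had all KELLY arrays below the others, and the median difference of the 12 was -0.61. ALKBH4, TRIM56 and TRIP6 are among these 12. The members had 89 probe sets, 57 of them not used for the values above. All 11 unused probe sets at or above the array median had KELLY below on every array. Of the 46 dimmer ones 33 had a difference below 0 and 13 did not, among them the 3 other probe sets of PMPCB. The same shares over all unused probe sets of the array were not counted.

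Among the genes for transport along cilia, membranes and vesicles, IFT22 had the largest difference of the block. IFT22 encodes a small GTPase-like subunit of the intraflagellar transport complex B. Its level was -1.41, -1.09 and -1.28 on the KELLY arrays, and 0.10 at the lowest, 1.02 at the median and 1.95 at the highest of the 12 other arrays. All KELLY arrays were below every other array, and the difference was -2.28, a 4.86-fold lower value in KELLY. AP1S1, a small subunit of the clathrin adaptor AP-1, had levels of -0.59, -0.65 and -0.70 in KELLY and of -0.12, 0.56 and 1.64 at the lowest, median and highest other array (difference -1.31). The lowest of the other AP1S1 values came from NGP, and no array of another line reached down to KELLY.

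Membrane transport and calcium genes were also low. ORAI2, a pore subunit of store-operated calcium channels, had levels of -0.80, -0.74 and -0.77 in KELLY, and of -0.58, 0.88 and 1.74 at the lowest, median and highest other array (difference -1.48). NGP was nearly as low as KELLY for ORAI2, with a mean of -0.77 in KELLY and -0.55 in NGP. The ORAI2 difference was -0.92 when its probe sets were averaged and -0.55 without _s_at and _x_at probe sets. SLC12A9, of the cation-chloride cotransporter family and the first gene of the list, had levels of -0.47, -0.59 and -0.43 in KELLY and of -0.03 to 0.29 on the other arrays (difference -0.65). CLDN15, a tight junction claudin with a mean below the array median, differed by -1.04 without overlap.

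Of the secreted and matrix-related genes, VGF and PLOD3 were both far lower in KELLY, in different patterns. VGF, a neuropeptide precursor stored in dense-core granules, had levels of 0.28, 0.41 and 0.46 in KELLY, and of 0.78, 2.49 and 3.66 at the lowest, median and highest other array. SK-N-AS was close to KELLY, at a mean of 0.86, while SH-SY5Y and BE(2)-C stood at 3.52 and 3.39, and NGP lay between at 1.49 (difference -1.93). PLOD3, which hydroxylates and glycosylates collagen lysines, had levels of -0.25, -0.17 and -0.10 in KELLY, and of 0.66, 2.24 and 2.72 at the lowest, median and highest other array. All 4 other lines were above KELLY for PLOD3, with NGP nearest at a mean of 0.76 (difference -2.17, or -1.07 with its probe sets averaged and -1.40 without _s_at and _x_at probe sets). ZNHIT1, whose start lies head to head with that of PLOD3, with 83 bases between the windows, is a subunit of the chromatin-remodelling SRCAP complex. It had levels of 0.95, 1.08 and 0.95 in KELLY and of 1.85, 2.65 and 2.98 at the lowest, median and highest other array (difference -1.53), again without overlap.

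**Figure D2:**
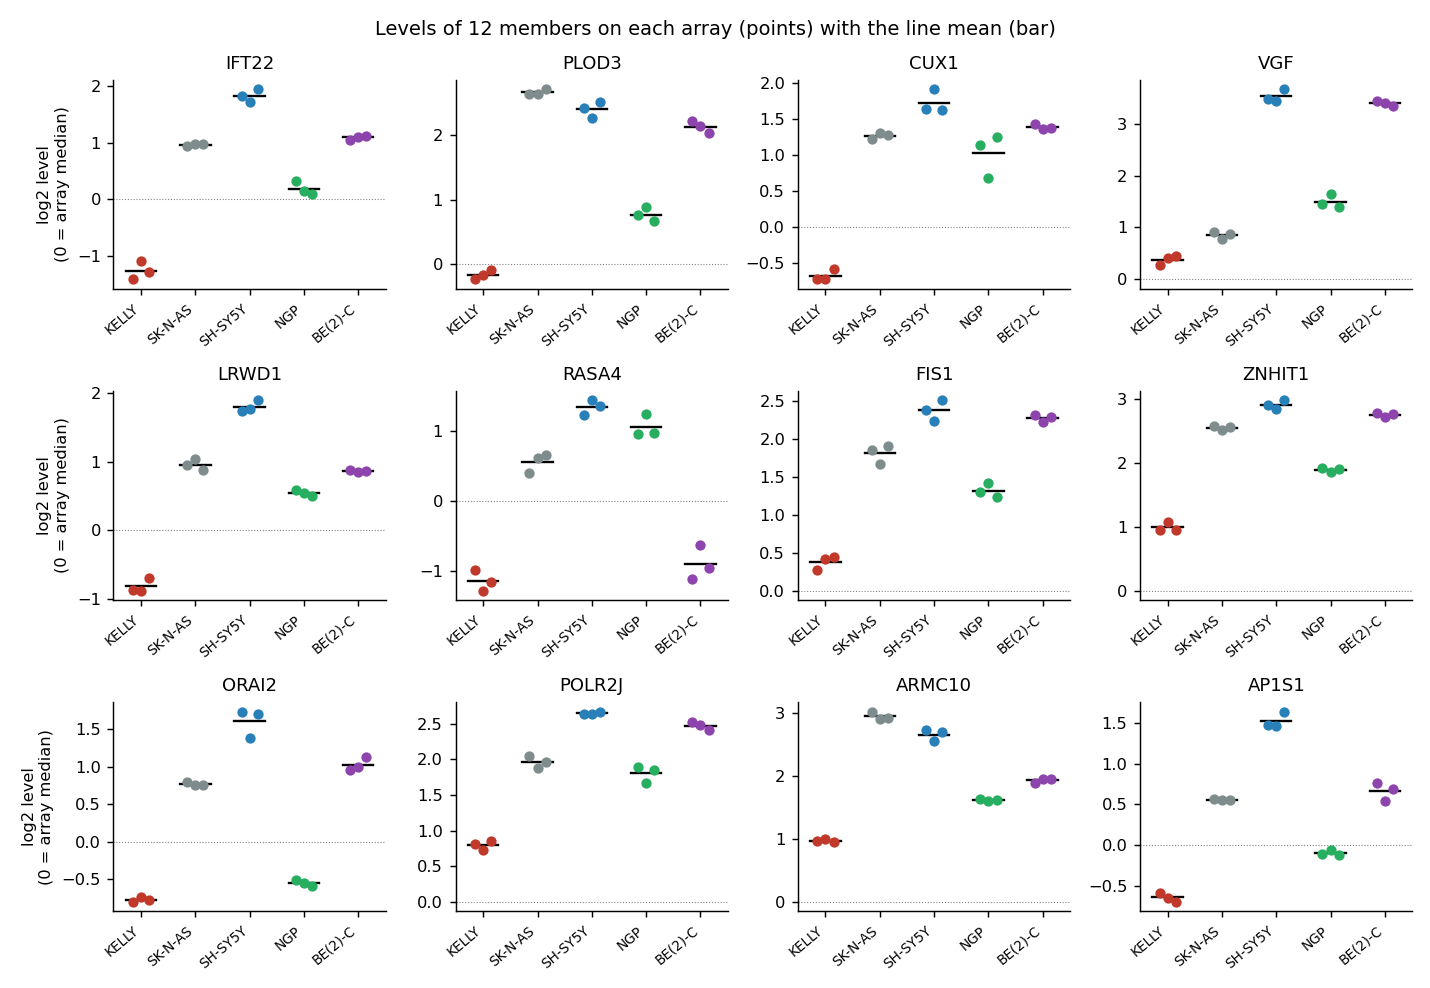
Log2 levels of the 12 members with the most negative difference on each array (points, 3 per line) with the line mean (bar), on an axis where 0 is the array's median tested gene. In 11 of the 12 panels the KELLY points lie below all others, and in the RASA4 panel those of BE(2)-C reach the KELLY range.

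Nuclear and replication genes made up a large part of the block. CUX1, a homeodomain transcription factor, had levels of -0.72, -0.72 and -0.58 in KELLY, and of 0.69, 1.34 and 1.92 at the lowest, median and highest other array. The gap between KELLY and the nearest other array was wide, and the difference was -2.03, a 4.09-fold lower value in KELLY (-1.11 with its probe sets averaged). LRWD1, which binds the origin recognition complex, had levels of -0.88, -0.88 and -0.70 in KELLY, and of 0.50, 0.88 and 1.90 at the lowest, median and highest other array (difference -1.86, or -0.90 without _s_at and _x_at probe sets). Its neighbour across the shared promoter window, ALKBH4, a dioxygenase of the AlkB family, differed by -0.72, also without overlap. ORC5, a subunit of the same complex and the last gene of the list, had levels of 0.10, -0.08 and 0.12 in KELLY and of 0.85 to 1.29 on the other arrays (difference -0.96). SRRT, known as ARS2 and a partner of the nuclear cap-binding complex, differed by -0.66, and PRKRIP1, named for its interaction with the kinase PKR, by -0.91, both without overlap. POLR2J, a small subunit of RNA polymerase II, had levels of 0.82, 0.73 and 0.86 in KELLY and of 1.67, 2.23 and 2.67 at the lowest, median and highest other array (difference -1.42). POLR2J has near-identical copies in the same band, and the probe set cannot be assigned to 1 copy with certainty.

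Apart from the dim FBXL13, the protein quality control and mitochondrial genes stood above the array median in all lines and were lowest in KELLY. FIS1, an outer-membrane protein of mitochondrial fission, had levels of 0.28, 0.42 and 0.44 in KELLY and of 1.23, 2.07 and 2.51 at the lowest, median and highest other array (difference -1.57). ARMC10, an armadillo-repeat protein linked to mitochondria, had levels of 0.97, 0.99 and 0.95 in KELLY and of 1.60, 2.25 and 3.03 at the lowest, median and highest other array (difference -1.32). Neither gene overlapped. FBXL13, whose promoter window overlaps that of ARMC10, was dim and overlapped (difference -0.38). PMPCB, the catalytic subunit of the processing peptidase that removes mitochondrial presequences, differed by -1.02, and by -0.21 when its 4 probe sets were averaged. DNAJC2, a ribosome-associated chaperone, differed by -1.20, and PSMC2, an ATPase of the proteasome cap, by -0.83. The closest approach of these 3 was in PSMC2, at 1.94 on the second KELLY array and 2.01 on the lowest NGP array.

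Signalling and lipid genes gave the most mixed values. RASA4, which promotes the GTPase activity of RAS, had levels of -0.99, -1.29 and -1.17 in KELLY and of -1.12, 0.81 and 1.45 at the lowest, median and highest other array (difference -1.67). BE(2)-C was low as well, at a mean of -0.90, and its arrays overlapped with those of KELLY. TRIM56, a ubiquitin ligase of innate immunity, averaged -2.91 in KELLY, -3.02 in SH-SY5Y and -2.84 in NGP, against -0.09 in SK-N-AS and -0.75 in BE(2)-C, so its difference of -1.24 was not one of KELLY alone. TRIP6, a LIM protein of the zyxin family, was at a mean of -3.16 in KELLY and high in SK-N-AS alone, at 0.12, and the other 3 lines averaged between -2.92 and -2.32 (difference -1.16). NAPEPLD, the phospholipase that releases N-acylethanolamines, differed by -1.15 (-0.71 with its probe sets averaged and -0.69 without _s_at and _x_at probe sets), with a narrow gap between -2.17 on the highest KELLY array and -2.16 on the lowest other array. FAM185A differed by -1.02 and the UFM1-specific protease UFSP1 by -0.50, both without overlap. The mean KELLY intensity was under the filter of 80.6 in TRIP6 (23.3), TRIM56 (27.9), FAM185A (29.3), NAPEPLD (44.0) and UFSP1 (46.5). These genes were tested through their higher lines, so the size of their differences is uncertain.

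The members with a difference near or above 0 all had levels below the array median. MOGAT3, a monoacylglycerol acyltransferase, differed by 0.27, SPDYE2 of the Speedy family by 0.25 and NAT16, of the N-acetyltransferase family, by 0.03. SH2B2, an adaptor of receptor kinases, differed by -0.07. On the deposited scale, where all genes shift down in KELLY, the first 3 turned to -0.26 for MOGAT3, -0.28 for SPDYE2 and -0.50 for NAT16. ACHE, acetylcholinesterase, had levels between -2.54 and -2.06 in KELLY and between -2.94 and -2.07 in the other lines. SPDYE2 and RASA4 belong to families of near-identical copies, and their values are uncertain for that reason. The 5 probe sets annotated to more than 1 member of these families had differences between -0.15 and 0.63, at levels well below the array median.

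Low values were also found beyond the listed genes. Along chromosome 7, a running median over 5 tested genes was counted as low when it was over 0.5 below the median of all tested genes. The low windows ran without a break over 64 genes, from POP7 to TMEM168. The ends moved with the setting: the run covered 60 genes from SLC12A9, the first listed gene, to CAV1 with probe sets averaged, 72 from GNB2 to CAV1 with no filter, and 67 from GIGYF1 to GPR85 with windows of 15 genes. Over genes at or above the array median alone, a choice made after the data were seen, they ran over 55 genes from ZKSCAN1 to SAMTOR. Between these ends lay 95 tested genes with a median difference of -0.94. In 60 of them (63.2%, beside 9.07% of all tested genes) all KELLY arrays were below the others. Of the 55 genes at or above the array median, 54 had a difference below 0 and 48 had no overlap. Of all 6204 tested genes that bright, 3261 had a difference below 0 and 864 had all KELLY arrays below the others. GPC2, a glypican on the surface of neuroblastoma cells, was the only 1 of the 55 above 0, at 0.10. The 64 genes of this stretch that were not on the list had a median difference of -0.84, and 36 of them did not overlap.

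**Figure D3:**
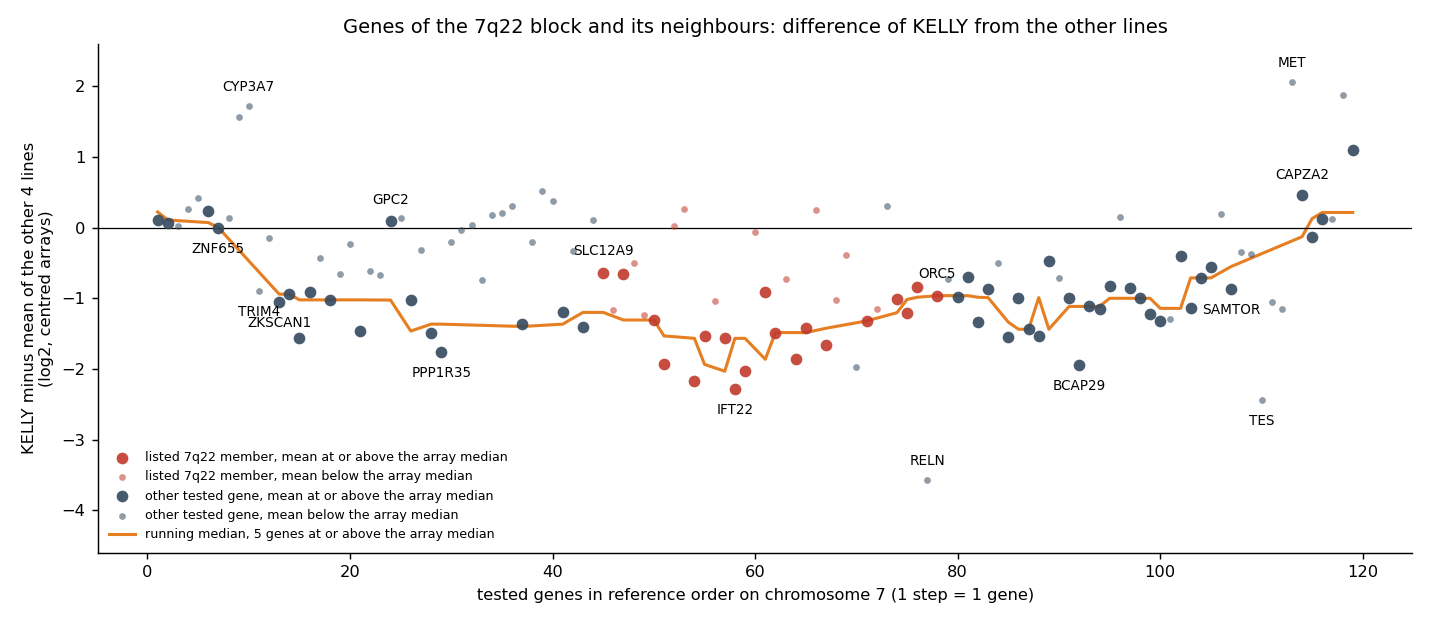
Difference of KELLY from the mean of the other 4 lines (log2, centred arrays) for the tested genes of the low stretch and the 12 tested genes on each side, in reference order along chromosome 7; red points are listed members, dark points other genes, and the line is the running median over 5 genes at or above the array median. The large points lie near 0 up to ZNF655, at about the level of the members from ZKSCAN1 on, and near 0 again at CAPZA2, ST7 and LSM8, while the last one, ING3, is at 1.1.

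Of the 10 tested genes just before SLC12A9, most were dim, and their median difference was -0.05. The 3 brighter ones, PCOLCE (-1.36), GNB2 (-1.20) and POP7 (-1.40), were all lower in KELLY. POP7, a subunit of the RNase P and MRP enzymes, had levels between 1.42 and 1.57 in KELLY and between 2.28 and 3.32 on the other arrays, whereas EPHB4, an ephrin receptor next to SLC12A9, was dim and overlapped (0.10). Farther out, COPS6 (-1.56), LAMTOR4 (-1.46), MEPCE (-1.49) and PPP1R35 (-1.75) were as low as the members. MCM7, a subunit of the replicative helicase, differed by -0.90. ZKSCAN1, a zinc finger gene at the edge, had levels between 0.56 and 0.86 in KELLY and between 0.98 and 2.47 on the other arrays (-1.05). TRIM4, 2 tested genes before it, was dim and differed by -0.89. Before these genes stood ATP5MF (0.07), FAM200A (0.23) and ZNF655 (0.00), and the 12 tested genes before ZKSCAN1 had a median difference of 0.12.

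On the far side, all 10 tested genes after ORC5 had a difference below 0 (5669 of all 12721 tested genes did), with a median of -0.99. LHFPL3, the nearest, was dim and overlapped (-0.73). KMT2E, which encodes a histone methyltransferase family protein linked to neurodevelopment, had levels between 0.42 and 0.52 in KELLY and between 0.75 and 1.92 on the other arrays (-0.98). The others were SRPK2 (-0.70), PUS7 (-1.34), RINT1 (-0.86), ATXN7L1 (-0.50), SYPL1 (-1.54), NAMPT (-0.99), CCDC71L (-1.44) and PRKAR2B (-1.54). Beyond them BCAP29 differed by -1.95 and DLD, a subunit of mitochondrial dehydrogenase complexes, by -1.14. SAMTOR, an S-adenosylmethionine sensor of the mTORC1 pathway at the far edge, had levels between -0.63 and -0.59 in KELLY and between -0.20 and 0.88 on the other arrays (-0.87). After SAMTOR, CAPZA2 (0.46), ST7 (-0.13) and LSM8 (0.13) stood near 0, while the dim genes TES (-2.44), CAV2 (-1.06), CAV1 (-1.14) and MET (2.06) lay far from it in both directions. ING3, also above the array median, differed by 1.1, and the dim gene TSPAN12 by 1.87. The 12 tested genes after the stretch had a median of 0.00.

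Of the 3 tested genes inside the listed span but not on the list, RELN, a secreted glycoprotein of neuronal migration, differed by -3.57 and LRRC17 by -1.98, and DPY19L2P2 by 0.30. All 3 were dim on average, and RELN reached 3.43 on the highest of the other arrays. Over the rest of chromosome 7, the median difference was 0.19 for the 340 tested genes before the stretch and 0.24 for the 166 after it, and 4.35% of these genes had all KELLY arrays below the others.

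**Figure D4:**
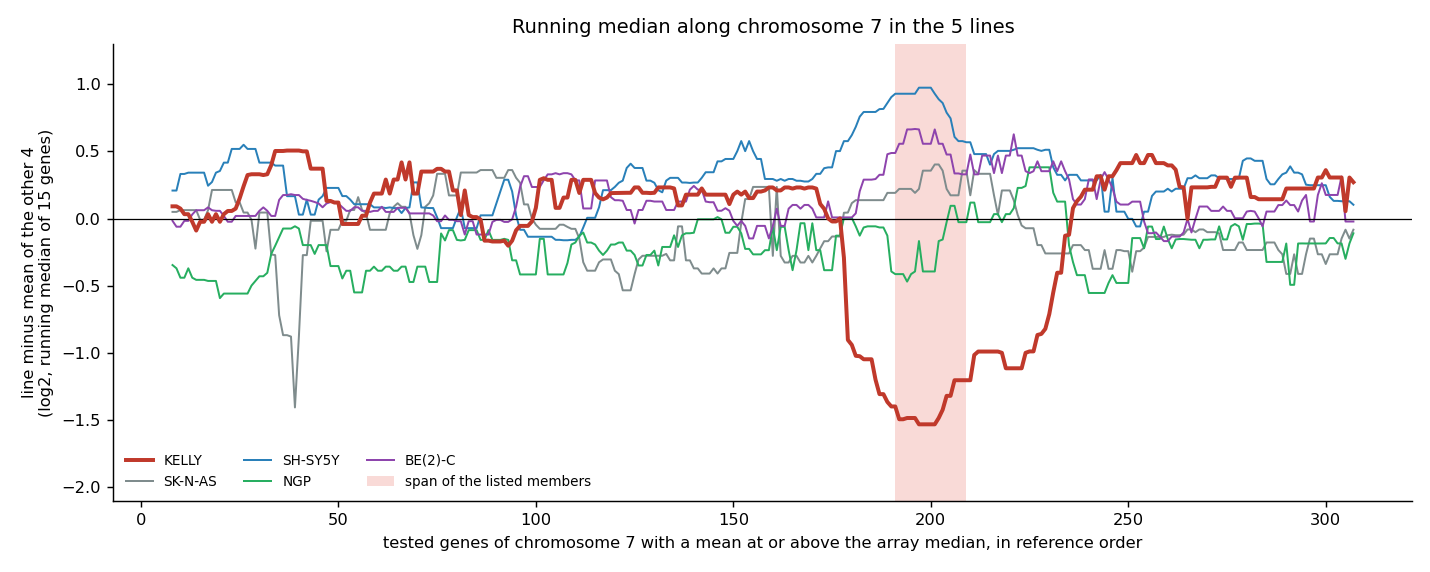
Running median over 15 genes of each line's difference from the mean of the other 4 lines, for the 314 tested genes of chromosome 7 at or above the array median, in reference order; the shaded band spans the listed members. The KELLY curve is lowest, -1.53, at FIS1, and that of SK-N-AS reaches -1.41 at ANKMY2, elsewhere on the chromosome. Each curve is set against a mean that includes the other lines, so the low KELLY values raise the other 4 curves at the block by construction.

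How long low runs in KELLY were elsewhere depended on the genes used. Over all tested genes the longest low run elsewhere in KELLY covered 33 genes on chromosome 2, from DDX11L2 to CCDC74B, shorter than the 64 of the 7q run. Over genes at or above the array median, the choice made after the data were seen, it covered 93 genes on chromosome 2, from SUCLG1 to GCA, longer than the 55 of the 7q stretch. Elsewhere in the genome 8.44% of the windows over all tested genes were low in KELLY. On chromosome 7 the longest low run over all tested genes in another line covered 6 genes in SH-SY5Y, 7 in SK-N-AS, 19 in NGP (from ACTB to RPA3, at the other end of the chromosome) and 5 in BE(2)-C. These counts say nothing of depth: over brighter genes and windows of 15, SK-N-AS went down to -1.41 at ANKMY2, where KELLY was lowest at -1.53 at FIS1.

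Differences among the other 4 lines do not use the KELLY levels, but the KELLY arrays enter the estimate of spread. The members were chosen for KELLY lying below these lines, so the contrasts are not independent of that choice. The share of members called in at least 1 contrast was near that of all tested genes. The contrasts were tested with limma over all 12721 genes. A call needed an adjusted p (Benjamini-Hochberg) under 0.05 together with a log2 difference of 1 or more in either direction. Of the 31 members, 17 were called in at least 1 of the 6 contrasts, which is 54.8% beside 48.5% of all tested genes, and 14 were called in none. The largest count was for SH-SY5Y against NGP, where 10 members were higher in SH-SY5Y (32.3% of the members, beside 8.38% of all genes) and 1 was lower (3.23%, beside 7.79%). The median of SH-SY5Y minus NGP was 0.59 over the members and 0.00 over all genes.

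The 10 genes higher in SH-SY5Y than in NGP were AP1S1, VGF, PLOD3, ZNHIT1, FIS1, IFT22, ORAI2, LRWD1, FAM185A and ARMC10. ORAI2 had the largest of these differences, 2.15 ± 0.08 (SE, limma adjusted p = 9.44e-14), followed by VGF at 2.03 ± 0.07 (limma adjusted p = 1.09e-13). NAPEPLD ran the other way, with a deposited intensity of 50.5 in SH-SY5Y, under the filter of 80.6, and of 200.3 in NGP. All but FAM185A and NAPEPLD of these 11 were at or above the array median. SH-SY5Y minus the mean of SK-N-AS, NGP and BE(2)-C had a median of 0.52 over the members. It was 0.39 over the 64 unlisted genes of the low stretch, and 0.25 over all 570 unlisted tested genes of chromosome 7. NGP minus the mean of SK-N-AS, SH-SY5Y and BE(2)-C had a median of -0.42 over the members. It was -0.06 over the unlisted genes of the stretch and -0.06 over those of the chromosome.

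The other 5 contrasts called fewer members. SK-N-AS against NGP had 6 higher and 1 lower (background 14.3% and 15.8%), and SK-N-AS against BE(2)-C had 4 higher and 1 lower (12.5% and 12.5%). SK-N-AS against SH-SY5Y had 2 higher and 3 lower (11.5% and 14.3%), SH-SY5Y against BE(2)-C had 4 higher and 1 lower (9.32% and 7.22%), and NGP against BE(2)-C had 1 higher and 4 lower (10.3% and 8.96%). TRIM56 and VGF were called in 4 contrasts each, more than any other member. VGF was lower in SK-N-AS than in SH-SY5Y, at -2.67 ± 0.07 (SE, limma adjusted p = 1.08e-15). TRIM56 was called higher in SK-N-AS than in SH-SY5Y, with SK-N-AS at a deposited intensity of 441 and SH-SY5Y at 22.1. TRIP6 was called higher in SK-N-AS than in BE(2)-C, with SK-N-AS at 510 and BE(2)-C at 52.9 on the same scale. Both genes passed the filter on low values through their high lines. For these contrasts among the other 4 lines, no exact difference is given for the 2 genes, as the lower line lay under the filter. CUX1, POLR2J, PMPCB, DNAJC2, PSMC2 and ORC5 were among those called in none.

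The partners of the members that lie elsewhere in the genome were tested for KELLY minus the average of the other 4. The rule for the members did not use them, but the lists were drawn up with earlier results of these data known. Of 122 listed partners in complexes and gene families, 105 were tested. In KELLY, 5 fell (4.76%, beside 5.65% of all tested genes) and 9 rose (8.57%, beside 6.41%), and their median difference was 0.01. One of the 5, IMMP2L of the mitochondrial inner membrane peptidase (-1.29 ± 0.05, SE, limma adjusted p = 2.25e-13), itself lies in the low stretch. The other 4 were POLR2L (-1.07), the cap-binding subunit NCBP1 (-1.16), the calcium channel subunit ORAI3 (-1.18) and the transporter SLC12A8 (-1.69). Whether they lie in another low run of KELLY, such as 47 brighter genes on chromosome 9 (IARS1 to CDK5RAP2), was not examined. Of the 5, all KELLY arrays were below the others in IMMP2L and NCBP1 alone. POLR2L averaged 1.95 in KELLY and 1.65 in NGP, which was lower. SLC12A8 averaged -2.48 in KELLY, while SH-SY5Y was lower at -2.95 and SK-N-AS stood at 2.2. ORAI3 averaged -2.61 in KELLY, far below the array median like SLC12A8, so the size of both differences is uncertain.

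**Figure D5:**
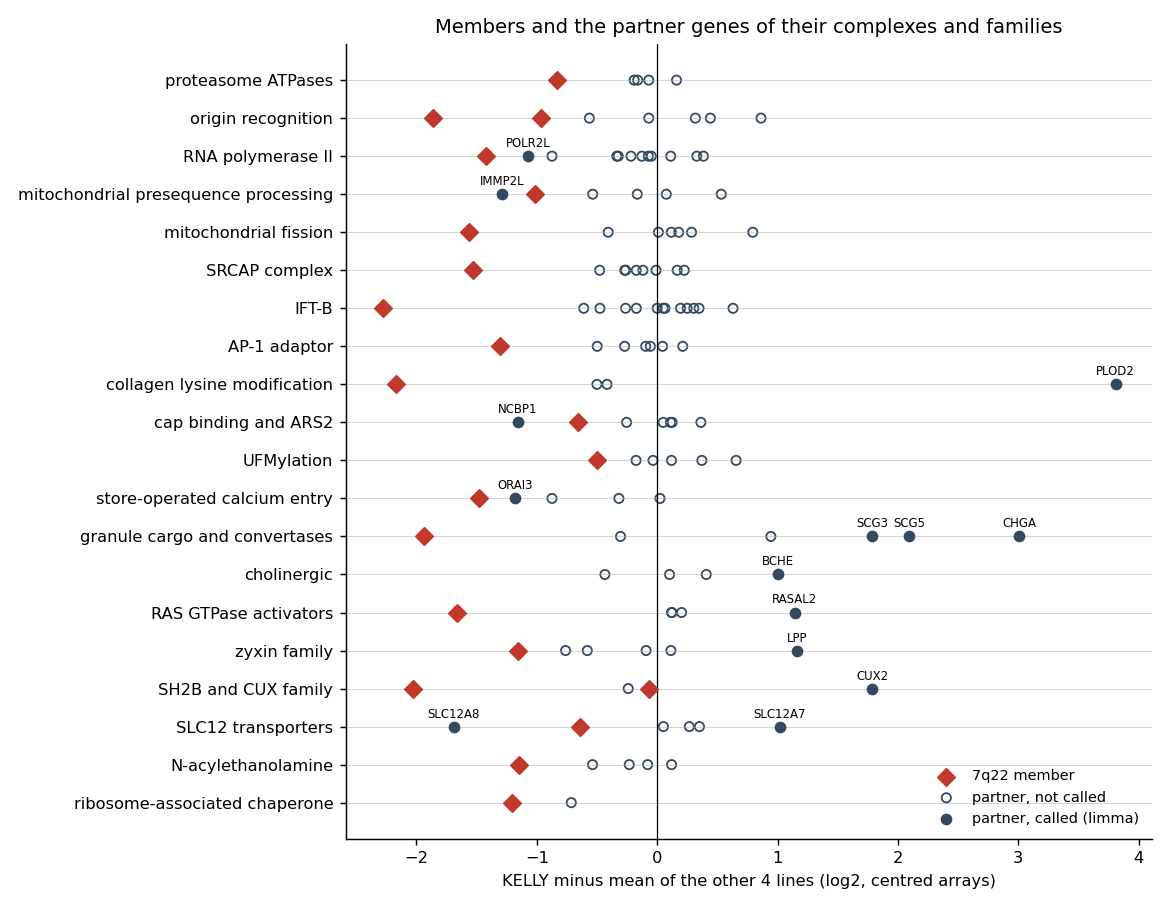
Difference of KELLY from the mean of the other 4 lines (log2, centred arrays) for the members (diamonds) and for the tested partner genes of their complexes and families (circles, filled where called with limma). Most diamonds lie left of the partners in their row, and the filled circles lie on both sides of 0.

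The lists are small, so that few calls would be counted at the background shares, and ORC5 and PSMC2 would miss the fold threshold themselves. Of the other origin recognition subunits, 0 of 5 were called, with a median of 0.32, from -0.56 in ORC4 to 0.86 in ORC6, while ORC5 and LRWD1 had -0.96 and -1.86. Of the other proteasome ATPases, 0 of 4 were called, with a median of -0.12 (PSMC4 at -0.19, PSMC6 at -0.16). RNA polymerase II had 1 of 11 called, POLR2L, and a median of -0.13. ORC4 and the RNA polymerase subunit POLR2D (-0.87) had all KELLY arrays below the others. Whether either lies in the low run of KELLY on chromosome 2 was not examined. The SRCAP complex had 0 of 8 called (median -0.15, RUVBL1 at -0.48), intraflagellar transport complex B 0 of 12 (median 0.06, IFT80 at 0.63 and IFT27 at -0.61), and AP-1 0 of 6 (median -0.08, AP1M2 at -0.50). Mitochondrial fission had 0 of 6 called (median 0.15, GDAP1 at 0.79 and DNM1L at -0.41). PMPCA, the partner of PMPCB in the processing peptidase, differed by -0.17. HSPA14, the only partner listed for DNAJC2, had -0.71. UFMylation genes had 0 of 5 called (median 0.12, CDK5RAP3 at 0.65), and N-acylethanolamine genes 0 of 4 (median -0.16, NAAA at -0.54). The counts of 0 are limma's past the fold threshold. At an unadjusted limma p under 0.05, 35 of the 51 tested genes in these lists differed (68.6%, beside 76.9% of all tested genes), 2 of 4 for the proteasome ATPases, 4 of 5 for origin recognition, 6 of 8 for SRCAP, 9 of 12 for intraflagellar transport and 3 of 6 for AP-1.

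Of the 9 partners that rose in KELLY, PLOD2, CHGA and RASAL2 had all KELLY arrays above the others. PLOD2, the collagen telopeptide lysyl hydroxylase, had levels of 2.49, 2.13 and 2.41 in KELLY. The lowest, median and highest other array had -4.32, -1.36 and 1.11 (difference 3.81). SH-SY5Y and BE(2)-C were the low lines, at means of -3.72 and -3.98, so the size of the PLOD2 difference is uncertain. PLOD3 lay the other way at -2.17. The granule list, the cargo and convertases stored with VGF, had 3 of 5 called, all higher: CHGA at 3.01, SCG5 at 2.09 and SCG3 at 1.79. SK-N-AS was very low for these genes, and so was NGP for SCG5 (-2.72), so the size of their differences is uncertain. CHGA averaged 5.94 in KELLY, -3.12 in SK-N-AS and 4.49 to 5.38 in the other 3 lines. SCG3 averaged 2.04 in KELLY and was higher in NGP (2.26) and BE(2)-C (2.32), with SK-N-AS at -5.13. SCG5 averaged 1.53 in KELLY and 1.57 in BE(2)-C. Of the uncalled granins, CHGB averaged 2.83 in KELLY, below SH-SY5Y, NGP and BE(2)-C, and SCG2 differed by -0.31. CUX2, the paralogue of CUX1, differed by 1.78, with KELLY arrays inside the range of the other lines. BCHE (1.0), LPP (1.16) and SLC12A7 (1.02) likewise overlapped the range of the other lines' arrays: BCHE averaged 0.07 in KELLY and 1.59 in BE(2)-C, LPP -0.96 in KELLY and -0.44 in SK-N-AS, and SLC12A7 0.38 in both KELLY and SK-N-AS. RASAL2 differed by 1.14. CUX2, BCHE, LPP, SLC12A7 and RASAL2 each averaged far below the array median in another line, so the size of their differences is uncertain too.

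Sympathoadrenal markers were above the filter in all 5 lines, with the fewest in SK-N-AS. Of 7 sympathoadrenal markers with a probe set, 7 were above the filter in KELLY and in SH-SY5Y, NGP and BE(2)-C, and 6 in SK-N-AS, where CHGA was below it. Of 3 leukocyte, 4 epithelial and 3 endothelial markers, 0 were above the filter in KELLY, and of 4 mesenchymal ones PDGFRB was. SK-N-AS had PTPRC, KRT8, KRT18, PECAM1, COL1A1, DCN and PDGFRB above it, BE(2)-C had PECAM1, CDH5, COL1A1, DCN and PDGFRB, NGP had COL1A1 and PDGFRB, and SH-SY5Y had PDGFRB. The filter is 1 intensity for all arrays, while the median intensity differed between lines. In SK-N-AS, with a median of 123, DBH (96.0) and PECAM1 (92.5) passed the filter below that median, while KRT8 (1394) and KRT18 (8602) lay far above it. COL1A1 passed in BE(2)-C at 85.7, below the median of that line, 103. The part of these markers in the results was not tested. The RNA quality control of ACTB (3′ minus 5′ probe sets, log2) was 1.08 ± 0.13 in KELLY and averaged between 0.71 and 1.23 in the other lines. Over genes, the correlation of 2 arrays was at least 0.993 within a line and at most 0.892 between lines. The median intensity of all probe sets averaged 68.3 in KELLY and 54.4 to 123 in the other lines, a spread that centring removes. On the scale as deposited, the median difference of KELLY over all tested genes was -0.46, and over the members -1.68.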

How the data were processed

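Total RNA of 5 neuroblastoma lines was measured on 15 3′ expression arrays, 3 per line, and the labelled cell line set the groups. The authors deposited 1 linear intensity per probe set and array for 49494 probe sets. Per the submitters' processing notes MAS5 was used. For its version, its background correction and its scaling nothing is stated in the sources used here. Intensities were transformed as log2(intensity + 1), and the median of the tested genes was subtracted on every array. The probe set with the highest mean stood for a gene, out of 45277 naming 1 gene in the platform annotation. Tests took genes whose highest line mean reached the median of all values (an intensity of 80.6).

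With limma 3.58.1 in R 4.3.3, line means were fitted over all 15 arrays with an intensity trend. Calls needed a Benjamini-Hochberg adjusted p under 0.05 and a log2 difference of 1 or more either way. On simulated data for the contrast of KELLY with the mean of the other 4 lines (12721 genes), all genes changed by 1.5 in either direction were called, 98% of those at -1.3 and 100% at 1.3, and 0 of the 12521 unchanged genes. The number of arrays limits the precision. RefSeq (GRCh38.p14) gave gene order and promoter windows.

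The members, the partner lists and the tests were chosen with earlier results of these data known. Named are all members, with array values for the 12 with the most negative difference and those at the ends, the 10 tested genes on each side, partners called in KELLY, the 1 or 2 largest differences in lists with none called, members called in the most contrasts, and near-identical copies. Genes named farther out along the chromosome, and CHGB, SCG2, PMPCA, POLR2D and the genes inside the span, were chosen after their values were seen. Alternatives changed the scaling, pseudocount, filter, probe set, fold threshold, variance trend, replicate block and the arrays or lines included.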

Additional observations from a re-analysis of the deposited data

How the results depend on the processing

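The members' median of -1.15 became -1.68 on the deposited scale and -1.67 with equal ERCC medians, where the median of all tested genes was -0.46 and -0.45, and members minus all genes was -1.22 in each case by arithmetic, since these scalings shift whole arrays. It was -0.93 with log2(intensity + 16), -1.25 with no filter, and -1.07 both with all probe sets of a gene averaged and without _s_at and _x_at probe sets. Leaving out the line SH-SY5Y, an alternative chosen after the data were seen, gave -1.02. Quantile normalization gave -1.22. The members with all KELLY arrays below the others numbered between 21 and 25 under these settings, where the value was 24. The same share over all tested genes rose to 14.4% on the deposited scale and 16.1% with equal ERCC medians. Of the 105 tested partners, 5 were called lower and 9 higher in KELLY. On the deposited scale the counts were 18 and 5 (background 17.2% and 2.97%), and with equal ERCC medians 16 and 5 (background 16.8% and 3.02%). With probe sets averaged, 2 and 5 of 99 were called (background 4.37% and 4.63%). With no fold threshold the counts were 39 and 37 (background 34.1% and 41.1%). Without _s_at and _x_at probe sets, 3 of 99 were lower (background 5.81%). With no fold threshold, 31 members were called among the other 4 lines (background 97.4%), where the count with it was 17. That count was 24 of 31 on the deposited scale (background 87.8%) and 22 of 31 with equal ERCC medians (84.2%). It was 12 of 27 with probe sets averaged (43.4%) and 14 of 26 without _s_at and _x_at probe sets (48.5%). Leaving out 1 array at a time gave medians of -1.18 to -1.09, 24 to 25 members without overlap, 64 to 70 genes in the low run (60 to 72 over all other settings that used all tested genes), 15 to 18 members called among the other lines, and 5 to 5 partners lower and 8 to 9 higher. The replicate numbers did not pair the samples: 5 of 30 pairs with the same number had deviations correlating over 0.1, as did 8 of 60 with other numbers. With the replicate block, 17 members and 5 and 9 partners were called. For single members, 527 recomputed differences moved by less than the replicate spread and 146 by more. These counts pool runs that left out 1 array, which have little room to move, with changes of processing. On the deposited scale and with equal ERCC medians, every tested member moved by more than that spread. The sign changed in members with a difference near or above 0: NAT16, MOGAT3 and SPDYE2 on the deposited scale and with equal ERCC medians, NAT16 also with quantile normalization (-0.18), with no filter (-0.13) and without KELLY replicate 3 (-0.09), and SH2B2 with log2(intensity + 16) (0.01).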

Other observations

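Runs of genes that were low in 1 line were not limited to KELLY. Over genes at or above the array median, and with the same window rule, the longest low run outside chromosome 7 covered 35 genes on chromosome 11 in SK-N-AS (TMEM135 to PTS), 39 on chromosome 22 in SH-SY5Y (POLR2F to TTLL12), 19 on chromosome 11 in NGP (DDX6 to PUS3) and 14 on chromosome 12 in BE(2)-C (SETD1B to ARL6IP4). Low windows made up 10.6% of those outside chromosome 7 in KELLY, 10.4% in SK-N-AS, 7.48% in NGP, 6.17% in SH-SY5Y and 3.79% in BE(2)-C. These runs are descriptions with no test.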
